A study of Mus musculus with 40 samples.

Results

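The Cyp3a family was followed in the livers of mice given GenX, a perfluoroalkyl ether acid used in place of longer-chain PFAS. Its members were the genes Cyp3a11, Cyp3a13, Cyp3a16, Cyp3a25, Cyp3a41a, Cyp3a41b, Cyp3a44 and Cyp3a59, found as the rows of the probe table that carry one of these symbols. They were 8 of 21448 gene symbols and held 13 of 30146 probes.

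Wild-type Crl:CD1(ICR) mice, an outbred stock, were dosed daily by gavage for 90 days. Treated mice received GenX at 0.1 mg/kg, 0.5 mg/kg or 5 mg/kg of body weight, and controls received deionized water. Each dose had 5 males and 5 females, and each library came from 1 formalin-fixed, paraffin-embedded liver section of 1 mouse. RNA was counted with TempO-Seq, in which oligomers that hybridize to a short stretch of a transcript are ligated and sequenced. Mice are named by their animal number, which starts with 1 for controls, 2 for 0.1 mg/kg, 3 for 0.5 mg/kg and 4 for 5 mg/kg, and ends in 01 to 05 for males and 51 to 55 for females.

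CYP3A enzymes are cytochrome P450s of the endoplasmic reticulum of hepatocytes, where they oxidize steroids, bile acids and many drugs with electrons from P450 oxidoreductase. Several are induced through the nuclear receptors PXR and CAR. In mouse liver some members are predominantly expressed in females under the control of the sex-specific pattern of growth hormone secretion, and others are expressed in both sexes.

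The 39 libraries used held 10341341 to 15562253 reads, and 1 female library at 0.5 mg/kg, mouse 355, was left out for its low total of 6711981 reads. Reads stood for 284218 to 649658 captured molecules per library, and 3 molecules per library was taken as the floor below which no fold is given. All 20 males and none of the 20 females had reads on the Y-linked gene Ddx3y, so the libraries matched their labelled sex. The PPARα target Ehhadh averaged 205 CPM (reads of a probe relative to all reads of its library, with TMM factors) in male controls and 10597 CPM in males at 5 mg/kg. Sections of whole liver cannot tell fewer hepatocytes from less RNA per hepatocyte. The summed level of 6 hepatocyte markers was 33573 to 41461 CPM in male controls and 19770.0 to 27892 CPM in males at 5 mg/kg, while it was 25087 to 44819 CPM in female controls and 16451 to 27195 CPM in females at 5 mg/kg. Most reads of this sum were of Apoa1, with 9887259 on 1 of its probes over the 39 libraries against 1981951 on Alb. The sum therefore mainly follows that gene. The part of hepatocyte content in the results was not tested. Markers of 4 endothelial genes summed to 74.1 to 211.5 CPM in any mouse, and those of macrophages, stellate cells, bile ducts and leukocytes to at most 76.4 CPM each.

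All members lie on chromosome 5, and all except Cyp3a13 lie in 1 cluster. In the GENCODE M21 annotation of build GRCm38, the build that the labels call mm10, the cluster runs from Cyp3a16 (chr5:145436309-145469723) through Cyp3a41b (chr5:145558664-145584730), Cyp3a41a (chr5:145694049-145720136), Cyp3a44 (chr5:145773983-145805874), Cyp3a11 (chr5:145854426-145879964) and Cyp3a25 (chr5:145977194-146009618), on the minus strand, to Cyp3a59 (chr5:146079257-146113287), on the plus strand. Cyp3a13 (chr5:137892932-137921619, minus strand) lies apart from them.

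The coding sequences are so alike that a short probe can belong to more than one member. Cyp3a41a and Cyp3a41b differed at 2 of 1512 coding bases, and 93.5% of the 50-base windows of the Cyp3a41b transcript are also in Cyp3a41a. Their probes are therefore read here as 1 pair of genes. Of the windows of Cyp3a25, 24.6% are also in Cyp3a59, of Cyp3a44 18.2%, of Cyp3a11 14.7% and of Cyp3a16 10.5% are in another member, and of Cyp3a13 none. Probe sequences were not used here, so which member a probe captures was not tested beyond its label.

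**Figure D1:**
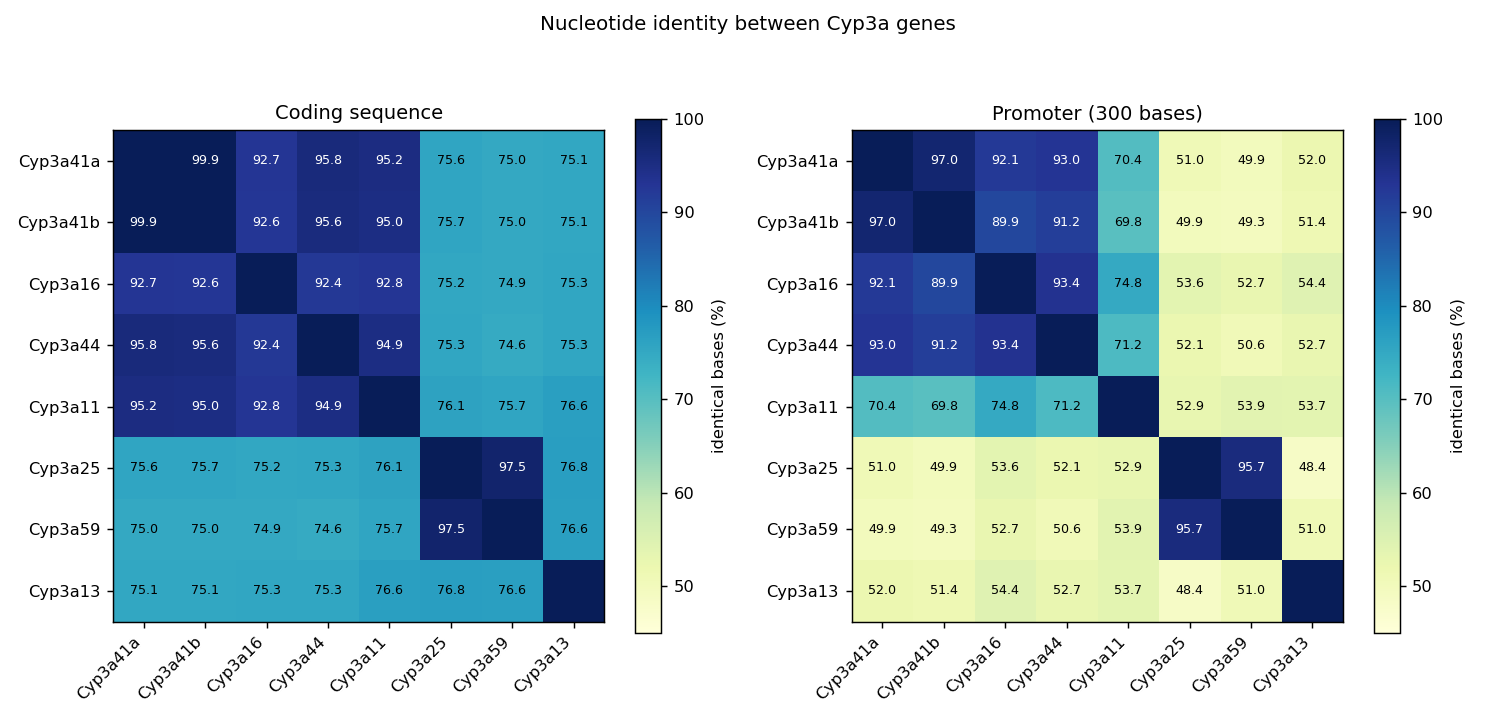
Percentage of identical bases between each pair of Cyp3a genes, in the coding sequence (left) and in the 300 bases around the start site (right), with darker cells for more alike pairs. Cyp3a41a, Cyp3a41b, Cyp3a16 and Cyp3a44 are 89.9 to 97.0% identical in the promoter but 69.8 to 74.8% identical to Cyp3a11 there, and 92.8 to 95.2% identical to Cyp3a11 in the coding sequence.

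The promoters separate the members more than the coding sequences do. The 4 genes that the results below show to be higher in females, Cyp3a41a, Cyp3a41b, Cyp3a16 and Cyp3a44, shared 89.9% to 97.0% of promoter bases with each other and 69.8% to 74.8% with Cyp3a11. A stretch of 30 bases is shown for these genes and Cyp3a11, because it carries, in capitals, CAAAGTCCA, the core of a site type bound by the hepatocyte factor HNF4α. Sequences are those of RefSeq (GRCm38.p6), 5′ to 3′ on the gene's strand, and lie at chr5:145720212-145720241, chr5:145584806-145584835, chr5:145469803-145469832, chr5:145805950-145805979 and chr5:145879944-145879973 in the order given.
Cyp3a41a: aagagacgacCAAAGTCCAggtgatgcagg
Cyp3a41b: aagagacgacCAAAGTCCAggtgatgcagg
Cyp3a16: aagagacgacCAAAGTCCAggtgatgcagg
Cyp3a44: aagatacgaccaaagtacaggtgatgcagg
Cyp3a11: aagagagtacCAAAGTCCAgtgatgcaaag

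The stretch was identical in Cyp3a41a, Cyp3a41b and Cyp3a16, and Cyp3a44 differed from Cyp3a41a by G5T and C17A, counted from 1 at the 5′ end of the stretch, of which the second lies in the motif. On either strand, CAAAGTCCA was in 156 of 32851 promoters of 300 bases, or 0.475%, and in the promoters of 4 of the 8 members. TTCNNNGAA, the site type of STAT5, which relays growth hormone, was in 8.3% of all promoters and in none of the 8 members. AGTTCA, a core element of sites for nuclear receptors such as PXR, was in 14% of all promoters and in those of Cyp3a11, Cyp3a41a and Cyp3a41b. These matches describe the letters in these windows and are not evidence of binding.

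The first comparison was between the sexes without GenX, which set the level from which each sex started. Levels are CPM, and since each probe has its own capture, they are compared between mice and not between genes. Of the 13 member probes, 12 of all 8 genes passed the filter on low counts, and the other, Cyp3a16_30712, had no read in any library. The female-predominant members Cyp3a41a, Cyp3a41b, Cyp3a16 and Cyp3a44 were higher in control females than in control males on 6 probes, where 2.11% of all 17877 probes were called higher in females. Cyp3a11_30591 was lower in females on 1 probe of that gene, where 1.38% of all probes were called lower. A probe is called here when its edgeR p adjusted over all probes is below 10%.

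Cyp3a41a, a steroid-oxidizing P450 known for its female predominance, had 2950.3, 2714, 2811, 3938 and 3867 CPM in mice 151 to 155. Male controls 101 to 105 had 339.8, 229.6, 207, 158 and 213 CPM. Every female was above every male, and the log2 difference was 3.83 ± 0.39 (SE, n = 5 per sex, edgeR adjusted p = 4.85e-10), which is 14.2-fold with a 95% interval of 8.28 to 24.3.

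The probes of its near-copy Cyp3a41b showed the same order with smaller steps. Cyp3a41b_30917 had 954, 792, 969, 1253 and 1097 CPM in control females and 137, 143, 187, 154 and 83.9 CPM in control males, a log2 difference of 2.85 ± 0.31 (SE, edgeR adjusted p = 2.95e-09). Cyp3a41b_73471 differed by 1.53 ± 0.20 on the log2 scale (SE, edgeR adjusted p = 5.61e-07), from 995 ± 186 CPM in females and 344 ± 55.6 CPM in males (SD, n = 5 each). Neither probe overlapped between the sexes.

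Cyp3a16 and Cyp3a44, whose products are less studied, were read almost only in females. Cyp3a16_81845 had 99.1, 417, 297, 568 and 245 CPM in control females and 0 in all 20 males of any dose, and its mean in control females was at least 34.4-fold higher than the male floor (edgeR adjusted p = 9.89e-05). Cyp3a44_29466 had 29.5, 29.1, 22.3, 44.4 and 57.0 CPM in control females and 0 in control males, at least 3.85-fold higher (edgeR adjusted p = 8.94e-07). Its other probe, Cyp3a44_77496, ranged from 4.51 to 64.9 CPM in control females and was at most 0.476 CPM in control males, at least 3.41-fold higher (edgeR adjusted p = 0.000527).

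Cyp3a11, the main drug-metabolizing and PXR-inducible member in mouse liver, went the other way on 1 of its 2 probes. Cyp3a11_30591 had 645, 672, 942, 608 and 521 CPM in control males and 423, 365, 239, 117 and 111 CPM in control females, so that every female was below every male. The log2 difference was -1.43 ± 0.36 (SE, edgeR adjusted p = 0.0159). Cyp3a11_72954 differed by -0.13 with a 95% interval of -0.87 to 0.62 and was not called. Cyp3a25, which oxidizes steroids and drugs in both sexes, and Cyp3a13, the member outside the cluster, had log2 differences of -0.52 (95% interval -0.98 to -0.06, edgeR adjusted p = 0.245) and -1.04 (95% interval -1.82 to -0.25, edgeR adjusted p = 0.195). Cyp3a13 was called lower in females without male 102 or female 152 (edgeR adjusted p = 0.0433 and 0.0911).

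**Figure D2:**
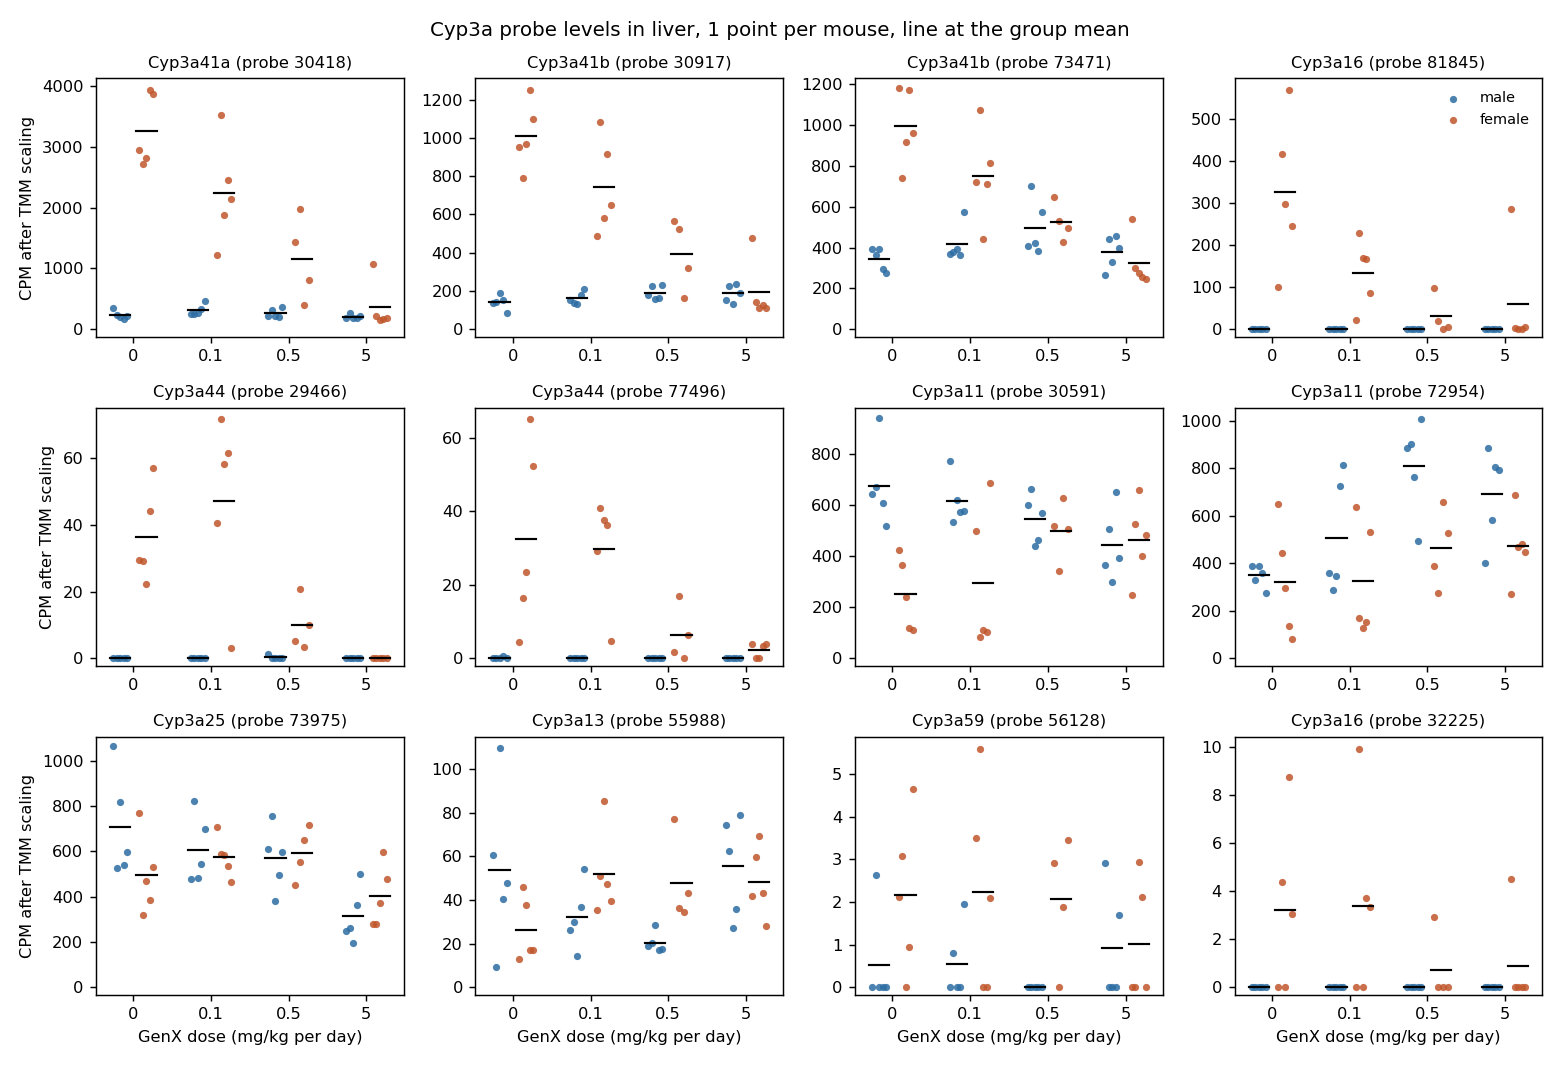
CPM after TMM scaling (vertical axis, linear, own scale in each panel) of the 12 tested Cyp3a probes against GenX dose, with 1 point per mouse, males in blue, females in orange and a line at each group mean. Cyp3a41a lay at 2714 to 3938 CPM in control females and at 142 to 210.5 CPM in 4 of 5 females at 5 mg/kg, with mouse 451 at 1071 CPM.

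In females, the question was how the family moved with dose. Cyp3a41a, Cyp3a41b and Cyp3a44 fell, and no probe of Cyp3a11, Cyp3a13, Cyp3a16, Cyp3a25 or Cyp3a59 was called at any dose. At 5 mg/kg 5 of 12 probes were called, all lower, where 1.83% of all probes were called lower. At 0.5 mg/kg 2 of 12 were called, both lower and both of Cyp3a41b, where 0.028% of all probes were called lower. At 0.1 mg/kg edgeR and DESeq2 each called 0 member probes, 2 had an unadjusted p below 0.05, and 0% of all probes were called. The 3 doses were compared with the same 5 controls, here and in males. Zonal hepatocyte genes also fell in females at 5 mg/kg, 4 of 6 periportal ones (median log2 change -0.78) and 3 of 8 pericentral ones (median -0.64). The periportal sum was 5559 to 8875 CPM in controls and 2776 to 5572 CPM at 5 mg/kg, with ranges that just overlapped. The pericentral sum overlapped widely, at 11236 to 21659 CPM in controls and 9567 to 23455 CPM at 5 mg/kg. Over the 39 libraries most reads of the periportal sum were of Pck1 and most of the pericentral sum were of Cyp2e1. The part of the zonal genes in the result was not tested.

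Cyp3a41a fell in steps of overlapping groups. It had 1221, 3532, 1886, 2448 and 2136 CPM in mice 251 to 255, 1441, 1969.6, 395 and 812 CPM in mice 351 to 354, and 1071, 210.5, 142, 171 and 189 CPM in mice 451 to 455. All mice at 0.5 and 5 mg/kg were below all controls, and mice 452 to 455 lay within or below the range of the control males. The log2 change was -0.54 ± 0.35 at 0.1 mg/kg (edgeR adjusted p = 0.92), -1.50 ± 0.38 at 0.5 mg/kg (edgeR adjusted p = 0.114) and -3.19 ± 0.38 at 5 mg/kg (SE, n = 5, 4 and 5 against 5, edgeR adjusted p = 1.58e-08). At 0.5 mg/kg the gene was called without mouse 352 (log2 change -1.88, edgeR adjusted p = 0.024). The change at 5 mg/kg is 9.13-fold lower with a 95% interval of 5.41 to 15.4. Ordered by mean, the female groups ran from control to 5 mg/kg and stood above all male groups. The ranges of all neighbours in that order overlapped. At 5 mg/kg the female mean of 357 CPM was raised by mouse 451, and the female median of 189 CPM lay below the median of 213 CPM in male controls.

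Both probes of Cyp3a41b were called at 0.5 and 5 mg/kg. Cyp3a41b_30917 had 563, 523, 161 and 321 CPM at 0.5 mg/kg and 478, 140.2, 108, 127 and 108 CPM at 5 mg/kg. Its log2 change was -1.37 ± 0.31 (SE, edgeR adjusted p = 0.0382) and -2.40 ± 0.30 (SE, edgeR adjusted p = 7.88e-08). Cyp3a41b_73471 changed by -0.93 ± 0.22 (SE, edgeR adjusted p = 0.0463) and -1.62 ± 0.20 (SE, edgeR adjusted p = 9.55e-08) at these doses. For both probes all mice at both doses were below all controls. The calls at 0.5 mg/kg were lost when some single mice were left out, while the log2 changes stayed between -1.11 and -1.28 for Cyp3a41b_30917 and between -0.84 and -0.93 for Cyp3a41b_73471. For Cyp3a41b_30917 the adjusted p was 0.118, 0.371 and 0.157 without mouse 154, 353 or 354, and for Cyp3a41b_73471 it was 0.13, 0.143, 0.133, 0.351 and 0.143 without mouse 151, 154, 352, 353 or 354. With the shallow library of mouse 355 included, 0 member probes were called at 0.5 mg/kg in females by edgeR.

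Cyp3a44 was no longer detectable above the floor at 5 mg/kg. Cyp3a44_29466 had 40.5, 71.7, 58.4, 61.7 and 3.19 CPM at 0.1 mg/kg, 5.15, 20.9, 3.37 and 9.94 CPM at 0.5 mg/kg, and 0 in all 5 females at 5 mg/kg. The controls averaged 36.5 ± 14 CPM (SD), at least 4.11-fold above the floor at 5 mg/kg (edgeR adjusted p = 5.69e-07). Cyp3a44_77496 was at most 3.99 CPM at 5 mg/kg, at least 3.64-fold lower (edgeR adjusted p = 0.0758). That second call was lost when 1 of 8 single mice, 153 to 155 or 451 to 455, was left out (adjusted p 0.101 to 0.221), with DESeq2, and with all 40 libraries.

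Cyp3a16 was low in all females at 5 mg/kg except mouse 451. Cyp3a16_81845 had 22.3, 228, 169, 167 and 85.9 CPM at 0.1 mg/kg, 97.9, 19.3, 0 and 3.98 CPM at 0.5 mg/kg, and 287, 2.50, 0, 0 and 5.29 CPM at 5 mg/kg. Mouse 451 lay within the range of the controls and the other 4 lay below the floor. Over all 5 mice the gene was not called (log2 change -2.46 ± 1.15, SE, edgeR adjusted p = 0.258), and without mouse 451 it was called lower (edgeR adjusted p = 7.91e-05). Cyp3a16_32225 was at most 9.94 CPM in any mouse and gives no fold.

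Mouse 451 stood apart from the other females at 5 mg/kg in Cyp3a41a, Cyp3a41b and Cyp3a16, and not in Cyp3a44 or in the PPARα target Ehhadh. Its Ehhadh, a peroxisomal enzyme of fatty acid oxidation, was 7670.3 CPM, within the 5792 to 9511 CPM of the other 4 and above the 172 to 282 CPM of the controls. Its Sult2a1, a female-predominant sulfotransferase, was 3023 CPM against 4.66 to 94.4 CPM in the other 4 and 1091 to 4868 CPM in controls. Its Cyp4a12a, a male-predominant P450, was 64.8 CPM against 119 to 221 CPM in the other 4 and at most 0.085 CPM in controls. Other listed female-predominant genes were mixed in mouse 451. Sult3a1 was 655 CPM, above the other 4 (9.77 to 252 CPM) and below all controls (838 to 2543 CPM). Cux2 was 0 CPM against 4.34 to 22.7 CPM in controls. A1bg, at 948 CPM, lay within the controls (210 to 2217 CPM). Without this mouse, the log2 changes of Cyp3a41a, Cyp3a41b_30917 and Cyp3a41b_73471 were -4.19 ± 0.31, -3.07 ± 0.26 and -1.89 ± 0.20 (SE).

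Cyp3a11 was not called in treated females, with estimates above 0. Cyp3a11_30591 had 518, 341, 628 and 506 CPM at 0.5 mg/kg and 250, 528, 661, 402 and 482 CPM at 5 mg/kg, and both groups overlapped the controls (111 to 423 CPM). The log2 changes were 0.99 ± 0.38 (SE, edgeR adjusted p = 0.485) and 0.89 ± 0.36 (SE, edgeR adjusted p = 0.255), and those of Cyp3a11_72954 were 0.53 ± 0.39 and 0.56 ± 0.37 (SE). The values for Cyp3a13 were 0.87 ± 0.41 and 0.89 ± 0.39, and those for Cyp3a25 were 0.26 ± 0.24 and -0.30 ± 0.23 (SE). None of these 4 probes was called at any dose in females.

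**Figure D3:**
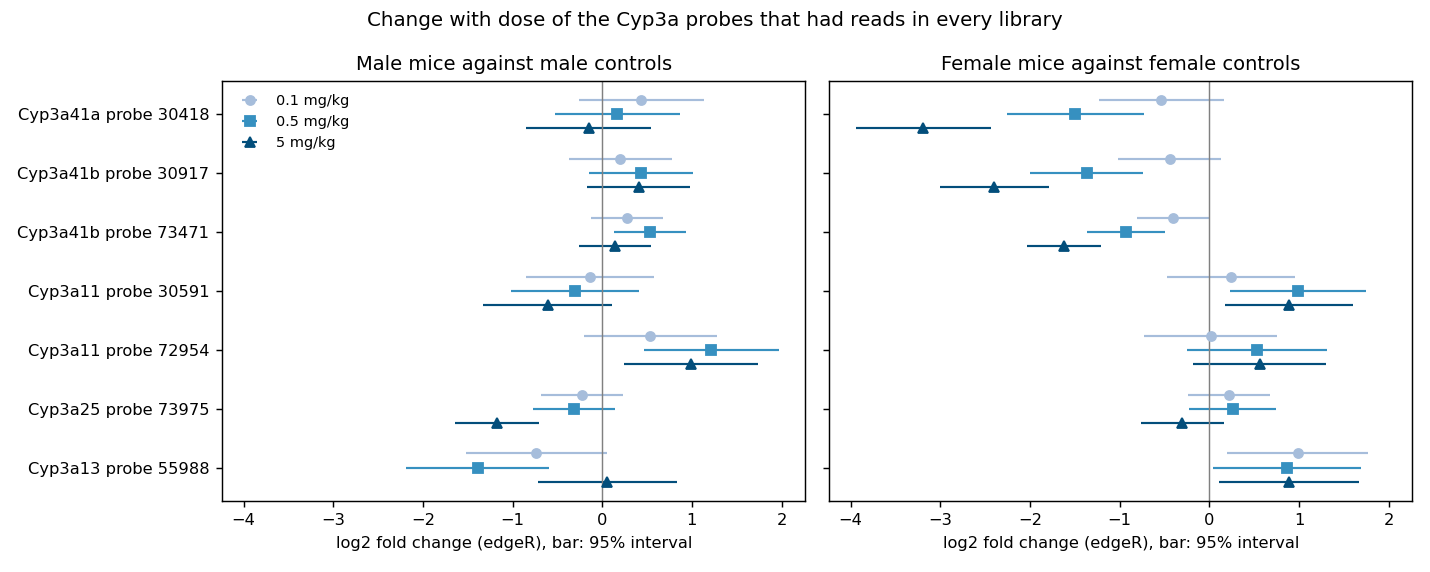
Log2 fold change (horizontal axis) against the controls of the same sex at 0.1 (circles), 0.5 (squares) and 5 mg/kg (triangles) for the 7 Cyp3a probes with reads in all 39 libraries, with bars for the 95% interval. In females the 3 Cyp3a41 probes reach -3.19, -2.40 and -1.62 at 5 mg/kg, and in males only Cyp3a25, at -1.17, was called at that dose.

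The change in females was compared directly with the change in males by an interaction term, which asks whether dose moved the sexes differently. At 5 mg/kg 3 of 12 member probes were called, all moving lower in females than in males, where 0.582% of all probes were called in that direction. Cyp3a41a differed by -3.04 ± 0.50 (SE, edgeR adjusted p = 0.000231), Cyp3a41b_30917 by -2.80 ± 0.41 (SE, edgeR adjusted p = 2.82e-05) and Cyp3a41b_73471 by -1.76 ± 0.28 (SE, edgeR adjusted p = 0.000182) on the log2 scale. At 0.5 mg/kg both Cyp3a41b probes were called in this direction (0.213% of all probes), at -1.80 ± 0.42 (SE, edgeR adjusted p = 0.0487) and -1.46 ± 0.29 (SE, edgeR adjusted p = 0.0108). Cyp3a13 was called in the opposite direction (0.0615% of all probes), at 2.26 ± 0.57 (SE, edgeR adjusted p = 0.0928). At 0.1 mg/kg edgeR and DESeq2 each called 0 member probes, 2 had an unadjusted p below 0.05, and 0% of all probes were called. Cyp3a16 and Cyp3a44 were at or near 0 in males, so no difference between the sexes is given for them. Their tested probes are still counted among the 12, including probes without a read in males, for which the term could not call a difference.

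In males, no probe of the female-predominant members was called at any dose. Cyp3a41b_73471 had 405, 700.5, 421, 382 and 575 CPM at 0.5 mg/kg, of which 4 lay above all controls, with a log2 change of 0.53 ± 0.20 (SE, edgeR adjusted p = 0.229). At 5 mg/kg it averaged 378 ± 80.6 CPM in males and 323 ± 123 CPM in females (SD), and these groups overlapped. Cyp3a41a ranged from 158 to 456 CPM over all 20 males, and its log2 change at 5 mg/kg was -0.15 with a 95% interval of -0.85 to 0.54. Cyp3a16_81845 had no read in any male and Cyp3a44_29466 had reads in 1 male, mouse 301, at 1.1 CPM. Male controls had no read on either probe, so no fall could be called for these probes in males. At 0.1 mg/kg edgeR and DESeq2 each called 0 member probes, 0 had an unadjusted p below 0.05, and 0.0336% of all probes were called.

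Cyp3a25 was the member called in males at 5 mg/kg, lower, where 3.45% of all probes were called lower. It had 1064, 525, 821, 540.1 and 595 CPM in male controls and 251, 262, 194, 365 and 499 CPM in mice 401 to 405, so every treated male was below every control. Its log2 change was -1.17 ± 0.23 (SE, edgeR adjusted p = 0.000283), which is 2.26-fold lower with a 95% interval of 1.63 to 3.12. At 0.5 mg/kg it was -0.32 ± 0.23 (SE, edgeR adjusted p = 0.647). The change in females at 5 mg/kg was -0.30 ± 0.23 (SE), and the interaction of 0.87 ± 0.32 (SE, edgeR adjusted p = 0.186) did not call a difference between the sexes. The summed level of 8 pericentral hepatocyte genes moved with it, from 16879.5 to 22953 CPM in male controls to 5992 to 9358 CPM at 5 mg/kg, and so did that of 6 periportal genes, from 4617 to 7422 CPM to 2069 to 3047 CPM. Most reads of these sums were of Cyp2e1 and of Pck1. Taken singly, 4 of 8 pericentral and 6 of 6 periportal genes were called lower. Captured molecules moved too, from 284218 to 367656 per library in male controls to 489778 to 649658 at 5 mg/kg, without overlap. Their part in the result was not tested.

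At 0.5 mg/kg 1 probe was called higher in males (1.74% of all probes) and 1 lower (0.638%). Cyp3a13 had 60.8, 9.37, 109.9, 40.4 and 47.6 CPM in male controls, 18.7, 20.4, 28.3, 17.1 and 17.7 CPM at 0.5 mg/kg, and 74.4, 62.7, 27.2, 35.7 and 79.1 CPM at 5 mg/kg. Control mouse 102 lay below every male at 0.5 mg/kg and the other 4 controls lay above. The log2 change was -1.39 ± 0.40 at 0.5 mg/kg (SE, edgeR adjusted p = 0.0562) and 0.06 ± 0.39 at 5 mg/kg (SE, edgeR adjusted p = 1). Leaving out control mouse 103 brought it to -0.95 with an adjusted p of 0.315, and the call was also lost without mouse 101, 301, 302, 304 or 305 (adjusted p 0.104 to 0.139).

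The 2 probes of Cyp3a11 moved apart in males. Cyp3a11_72954 had 389, 330.5, 389, 357 and 275 CPM in male controls, 886, 902, 761, 493 and 1008 CPM at 0.5 mg/kg, and 402, 883, 579.9, 803 and 792 CPM at 5 mg/kg. All treated males at both doses were above all controls, with log2 changes of 1.22 ± 0.37 (SE, edgeR adjusted p = 0.0929) and 0.99 ± 0.37 (SE, edgeR adjusted p = 0.117). The call at 0.5 mg/kg was lost without any 1 of 9 of the 10 mice, all except mouse 304 (adjusted p 0.127 to 0.207). Cyp3a11_30591 had 602, 666, 439, 466 and 568 CPM at 0.5 mg/kg and 366, 506, 300.5, 653 and 394 CPM at 5 mg/kg, with log2 changes of -0.31 ± 0.36 and -0.61 ± 0.36 (SE, edgeR adjusted p = 0.981 and 0.346). Cyp3a11 is therefore given no direction in treated males.

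The ratio of the 2 probes within each library shows this without scaling between libraries. The CPM of Cyp3a11_72954 over that of Cyp3a11_30591 was 0.413 to 0.603 in male controls, 1.06 to 1.77 at 0.5 mg/kg and 1.10 to 2.01 at 5 mg/kg. At 0.1 mg/kg the median was 0.559 and the highest value was 1.40. In females the medians were 1.21, 1.28, 0.926 and 1.08 from control to 5 mg/kg, with overlapping ranges. This ratio was chosen after its values were seen and was not tested. Over log2 CPM the probes correlated at r = 0.92 in the 19 females and r = -0.18 in the 20 males, which share treatment groups.

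**Figure D4:**
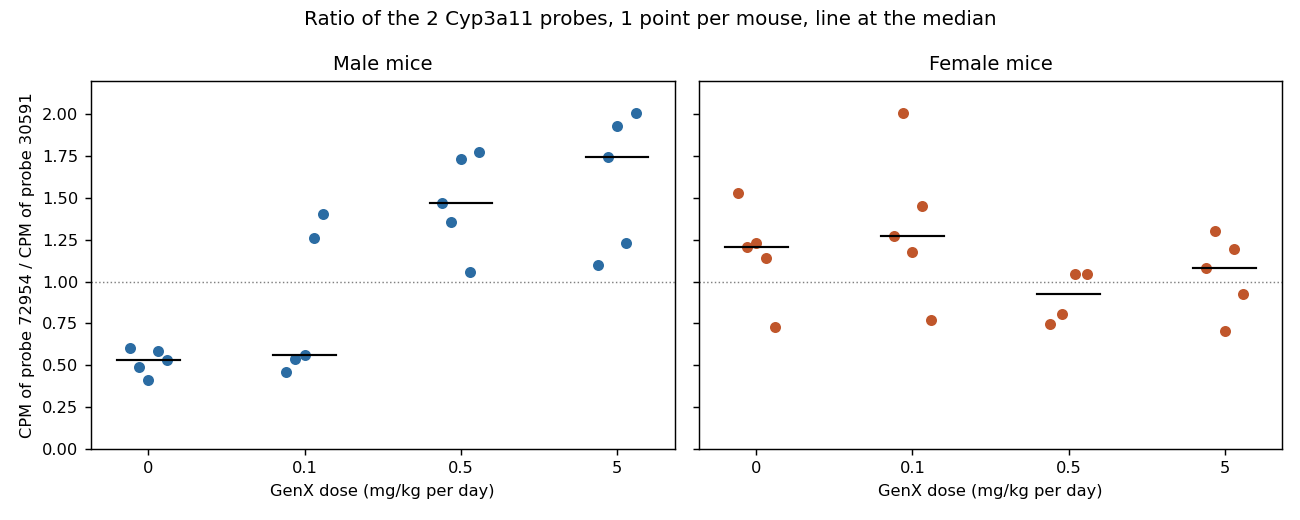
Ratio of the CPM of Cyp3a11_72954 to that of Cyp3a11_30591 (vertical axis, linear) in each mouse by GenX dose, males left and females right, with a line at the group median and a dotted line at a ratio of 1. Male controls lie at 0.413 to 0.603 and all males at 0.5 and 5 mg/kg above 1, while the female groups overlap.

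Summed over the 13 probes, the family held 5890.3 to 7704 CPM in female controls, 4083 to 6943 CPM at 0.1 mg/kg, 2958 to 4284 CPM at 0.5 mg/kg and 1991 to 3227 CPM at 5 mg/kg. The female mean fell from 6754 ± 755 to 2320.5 ± 513 CPM (SD, n = 5 each), a ratio of 2.91. Male means were 2503 ± 498, 2648 ± 453, 2892 ± 590 and 2278 ± 513 CPM (SD) in the order of dose. As a description of the probe signal, in which each probe has its own capture and genes with more probes count more, the probes of Cyp3a16, Cyp3a41a, Cyp3a41b and Cyp3a44 gave 73.8% to 91.5% of this sum in female controls and 25.9% to 32.3% in male controls. At 5 mg/kg they gave 73.8% in mouse 451 and 25% to 29.6% in the other 4 females. The grouping of these genes follows their levels in these mice, and no test was made on the sum.

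**Figure D5:**
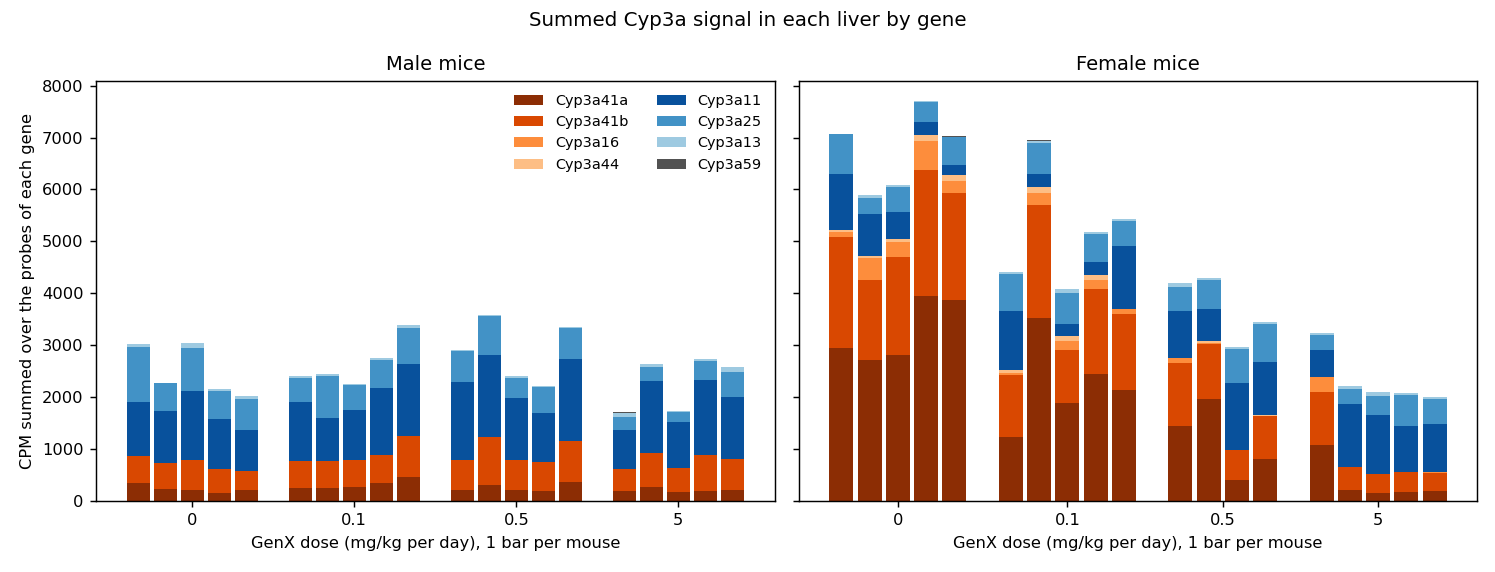
CPM summed over the probes of each Cyp3a gene (vertical axis, from 0) in every mouse, males left and females right, grouped by GenX dose, with female-predominant genes in orange and the others in blue and grey. Genes with more than 1 probe count with all of them. The female bars fall from 5890.3 to 7704 CPM in controls to 1991 to 3227 CPM at 5 mg/kg, where mouse 451 is the tallest, and the male bars stay between 1702 and 3583 CPM.

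The median log2 change of the 7 member probes that had reads in all 39 libraries was -0.30 in females at 5 mg/kg, beside -0.01 over all probes. That set holds no probe of Cyp3a16 or Cyp3a44, and over the 10 probes with a fold or a bound, with both Cyp3a44 probes at their bound, the median was -1.74. Over the 7 probes in males at 5 mg/kg it was 0.06 beside 0.10. Cyp3a59 was at most 5.6 CPM in any mouse, under the floor in each group, and nothing is read from it.

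The genes that regulate the family, a list of 12 receptors and liver factors, mostly showed no called change. At 5 mg/kg 3 of 12 fell in males (median log2 change -0.36, all probes 0.10) and 1 of 12 fell in females (median 0.08, all probes -0.01), where 3.45% and 1.83% of all probes were called lower. Hnf4a, the hepatocyte factor named above, changed by -0.80 ± 0.16 in males (SE, edgeR adjusted p = 0.000497) and by -0.56 ± 0.16 in females (SE, edgeR adjusted p = 0.0439). Cebpa, another hepatocyte factor, and Rxra, the partner of PXR, CAR and PPARα, fell in males by 0.81 and 0.35 on the log2 scale (edgeR adjusted p = 0.00589 and 0.0821). Nr1i2 and Nr1i3, which encode PXR and CAR, were not called at 5 mg/kg in either sex.

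Of 16 other PXR and CAR targets, 3 rose and 3 fell in males at 5 mg/kg (median log2 change 0.14, all probes 0.10) and 1 rose and 2 fell in females (median -0.11, all probes -0.01). Of all probes, 4.83% were called higher and 3.45% lower in males, and 1.83% each way in females, at this dose, and the same shares stand beside the lists of sex-biased genes that follow. Cyp2c29, a CAR-inducible P450, fell by 2.82 in males (edgeR adjusted p = 1.53e-17) and by 0.97 in females (edgeR adjusted p = 6.57e-05) on the log2 scale, and Cyp2c50, of the same subfamily, fell by 3.64 and 1.87. Ces2a, a carboxylesterase, fell by 1.32 and Gstm3, a glutathione transferase, rose by 0.82 in males. Of 7 electron donors and heme enzymes, Por, the P450 oxidoreductase, rose in males by 1.05 (edgeR adjusted p = 0.0963, 1 of 7 called, median 0.00). In females its log2 change was 0.51 ± 0.37 (SE, edgeR adjusted p = 0.7).

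All 8 listed female-predominant genes outside the family were called higher in control females than in control males. In females at 5 mg/kg 2 of 8 fell, among them Sult3a1, a sulfotransferase (edgeR adjusted p = 0.0271). Cyp2b9 and Cyp2a4, steroid-oxidizing P450s, had 105 and 255 CPM in control females and 121 and 234 CPM at 5 mg/kg and were not called. In males 4 of 8 rose, among them Cyp2b9, from 3.16 ± 5.53 to 69.3 ± 15.9 CPM (SD, edgeR adjusted p = 0.000107), and Cyp2a4, from 30 ± 26.2 to 144 ± 75.8 CPM (SD, edgeR adjusted p = 0.00848). The median log2 change of the list in females at 5 mg/kg was -1.94 (all probes -0.01). No median is given for the list in males, as several of its genes had no read in them. Of 10 listed male-predominant genes, 7 were called lower in control females than in control males, where 1.38% of all probes were. At 5 mg/kg Cyp4a12a and Cyp4a12b rose in females, Cyp4a12a from 0.0303 to 149.6 CPM (edgeR adjusted p = 7.16e-18). Cyp4a12b was also higher in males at 5 mg/kg, with 79.4 to 138 CPM against 12.4 to 60.7 CPM in male controls. In males 5 of 10 fell and 1 rose, with Elovl3, an elongase, from 1118 ± 549 to 112 ± 77.5 CPM (SD, edgeR adjusted p = 3.79e-05) and Cyp7b1, an oxysterol hydroxylase, from 142 ± 62.3 to 18.9 ± 15.5 CPM (SD, edgeR adjusted p = 1.44e-05).

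The genes most like each member were sought over the 39 libraries. By Pearson's r on log2 CPM, the 3 genes most like Cyp3a41a included Sult2a2 (r = 0.943, and 0.920 within the 19 females) and Sult2a5 (0.916, and 0.855 within the 19 females). Within the 20 males r was -0.127 with both. Cyp3a16 was most like Sult2a2 (0.970), Sult2a5 (0.953) and Sult2a1 (0.946), and the 3 most like Cyp3a44 included Cyp2c69 (0.902) and Qsox1 (0.893). The 3 most like Cyp3a41b_73471 included Ifitm3 (0.775) and Sult2a5 (0.762). Cyp3a25 was most like Akr1c6 (0.734), Hsd3b2 (0.719) and Cyp2d22 (0.702), and Cyp3a11_72954, Cyp3a13 and Cyp3a59 reached at most 0.638, 0.654 and 0.640 with any gene. Within the 19 females the r of Cyp3a16 with its 3 genes were 0.916, 0.895 and 0.925, and its probe had no read in males. These libraries share sexes, doses and scaling, so r over all 39 includes the difference between the sexes, and no p is given.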

How the data were processed

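The authors hybridized TempO-Seq detector oligomers to liver sections, sequenced the ligated products and deposited raw counts of reads per probe and library, per the labels with bcl2fastq 2.17.1.14, Bowtie and mm10. The role of each tool is not given in the sources used here. The deposited counts have no molecular identifiers. In these sparse libraries 57.1% of values were 0, and the first peak of each library's count histogram, at 21 to 50 reads, was taken as the reads of 1 captured molecule, so floors cover counting error only, while the 95% intervals of the folds include the spread between mice.

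Groups came from the labels. Each library is a separate mouse, and mouse 355 was left out because its total lay below the mean of the 40 libraries less 2 SD (9680193 reads). Counts were tested with edgeR 4.0.16 (quasi-likelihood F-test, TMM, filterByExpr, 1 coefficient per group over 39 libraries) in R 4.3.3, two-sided, with Benjamini-Hochberg adjustment over 17877 probes and a threshold of 10%. The SE is the log2 change over the square root of F. Log2 CPM used a prior count of 2. A fold against a group at or under the floor is a bound, set from 3 captured molecules per library and averaged over the group. The edgeR and DESeq2 fits were tested on data simulated for the comparison of females at the highest dose with female controls, over 12963 probes. In that simulation the share of false calls stayed below the threshold for edgeR and far exceeded it for DESeq2. There edgeR recovered most of the larger changes but a minority of the smaller ones. The simulation did not cover all groups or the 17877 probes, so it does not show what share of the calls reported here is false.

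Alternatives were DESeq2 1.42.0, its size factors, no TMM, no filter, the inclusion of mouse 355, a fit without the other groups, sums over the probes of a gene, captured molecules in place of reads, and each mouse left out in turn. All member probes were described. Of each list of other genes, up to 4 with the smallest p at 5 mg/kg were named, and Nr1i3, Sult2a1 and Sult3a1 were added after their values were seen. Of the genes this rule names, 1 is not reported here. Members and lists were chosen with earlier results of these data known. Sequences were read from RefSeq promoters (GRCm38.p6, 250 bases before to 50 after the start) and GENCODE M21 transcripts with Biopython 1.88.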

Additional observations from a re-analysis of the deposited data

Results flagged for a closer look

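Within groups of 4 or 5 mice, a mouse was set apart when the gap to its nearest neighbour, as a share of the group's range on the log2 CPM scale, passed Dixon's 95% critical value. For normally distributed values chance does so in about 1 in 20 groups, and 11 of 80 checks did. A group in which 1 mouse alone had reads passes by construction. Probes of the same gene or of near-identical genes are not independent checks. The 11 are therefore not set against that rate. Mouse 451 stood above the other females at 5 mg/kg with a share of 0.805 for Cyp3a41a, 0.825 for Cyp3a41b_30917, 0.757 for Cyp3a41b_73471 and 1 for Cyp3a16_32225, where it alone had reads. Mouse 255 stood below the other females at 0.1 mg/kg for both probes of Cyp3a44, with 3.19 CPM against 40.5 to 71.7 CPM (0.815) and 4.78 CPM against 29.2 to 40.8 CPM (0.844). Mouse 205 stood above the other males at 0.1 mg/kg for Cyp3a41b_73471, with 577 CPM against 365 to 391 CPM (0.849). Single mice were the only ones of their group with reads (a share of 1) for Cyp3a44_29466 (301), Cyp3a44_77496 (104), Cyp3a59 (102) and Cyp3a16_32225 (351), all at under 3 CPM.

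The change with dose differed between the sexes, by the edgeR interaction term, for 3 probes at each of the higher doses. At 0.5 mg/kg the difference, female minus male, was -1.80 for Cyp3a41b_30917, -1.46 for Cyp3a41b_73471 and 2.26 for Cyp3a13 on the log2 scale. At 5 mg/kg it was -3.04 for Cyp3a41a, -2.80 for Cyp3a41b_30917 and -1.76 for Cyp3a41b_73471. The Cyp3a13 difference lost its call without any 1 of 12 of the 19 mice, with adjusted p of 0.102 to 0.305. That of Cyp3a41b_30917 at 0.5 mg/kg lost its call without mouse 105, 154, 305, 353 or 354, with adjusted p of 0.103 to 0.132. With all 40 libraries, all 3 calls at 0.5 mg/kg were lost, as was that of Cyp3a41b_73471 at 5 mg/kg (adjusted p = 0.202).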

How the results depend on the processing

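Of 842 log2 changes under the alternatives other than leaving out a mouse, 797 stayed on their side of the threshold, 16 lost a call, 29 gained one and 0 reversed, and of 1536 with a mouse left out the numbers were 1483, 48, 5 and 0. Called member probes in males at 0.5 mg/kg (2) were 1 with DESeq2, its size factors, no TMM, only the groups compared or probes summed by gene, 4 without the filter and 0 with all 40 libraries. In males at 5 mg/kg (1) they were 2 without TMM or by molecules and 3 without the filter or with only the groups compared. In females at 0.5 mg/kg (2) they were 5 without the filter, 0 with all 40 libraries and 4 by molecules. For the interaction at 0.5 mg/kg (3) they were 6 without the filter and 0 with all 40 libraries, and at 5 mg/kg (3) they were 5 without the filter or by molecules. With each mouse left out in turn they ranged from 0 to 1 and 1 to 2 in males at 0.5 and 5 mg/kg, 0 to 2 and 4 to 5 in females, 1 to 3 and 3 to 3 for the interaction, 7 to 8 between control sexes, and 0 to 0 at 0.1 mg/kg. Without TMM the male log2 changes at 5 mg/kg shifted by 0.13. The Cyp3a41a and Cyp3a41b calls in females and the Cyp3a25 call in males at 5 mg/kg held under every alternative run. The cause of the other shifts was not tested. No paired analysis was possible because the animal numbers name separate mice and the groups share no animal. With 3 molecules as the floor, Cyp3a16_32225 and Cyp3a59 are too low for a fold, and near-identical genes limit which member a probe reads.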
